A study of Xenopus laevis with 20 samples.

Results

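The Eph receptors and their ephrin ligands were examined across 20 Affymetrix arrays of whole Xenopus laevis embryos. The platform annotation gave an Eph receptor or ephrin symbol to 15 of the 15611 probe sets, all of which were taken. They comprised 8 receptor and 7 ligand probe sets for 13 symbols, or 11 genes once the endings .L and .S are ignored. These endings name the homeologous copies that this allotetraploid frog keeps of many genes. One probe set is listed for both homeologs of efnb2 and is called the shared efnb2 probe set here.

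Eph receptors are receptor tyrosine kinases that are activated by ephrins on neighbouring cells, and ephrins also signal back into the cell that carries them. Ephrin-A ligands are held in the membrane by a lipid anchor and bind mainly EphA receptors. Ephrin-B ligands span the membrane and bind mainly EphB receptors, although EphA4 binds both classes. The contacts steer cell repulsion, tissue boundaries and cell movement. In Xenopus, ephrin-B1 acts through Dishevelled and the planar cell polarity pathway in the movement of retinal progenitors into the eye field, and fibroblast growth factor (FGF) receptor signalling modulates that movement.

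Per the labels, 5 arrays held embryos injected with mRNA of Xrx1 (the eye field homeobox gene now named rax), 5 held embryos injected with the antisense morpholino MoXrx1, and 10 held uninjected siblings. Every injection also carried a tracer, GFP (green fluorescent protein) mRNA, and went into both dorsal cells of embryos at the 4-cell stage. All embryos were taken at stage 13, the early neurula. The stated amounts differ between labels and design text. They are 50 pg against 50 ng for Xrx1 mRNA and 400 pg against 400 ng for the tracer, while the morpholino is given as 1 pM, as 10 pg and as 0.5 pmol. The labels describe RNA of 3 embryos per array and the design text single embryos. No array held embryos given the tracer alone, so Xrx1 mRNA, tracer mRNA and the injection itself cannot be told apart. Nothing states that the arrays of a group came from separate matings, so a p-value here reflects only how these arrays vary, which may be technical.

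The arrays formed distinct sets, and in one of them the tracer went against the labels. The first principal component held 33.0% of the variance and separated mRNA arrays 1 to 5 with controls 1 to 5 (the first set) from arrays labelled morpholino with controls 6 to 10 (the second set). The array's control probe set AFFX-Xl-M62653-1_s_at, high in all mRNA arrays and low in controls 1 to 5, served as the tracer signal. It lay at 13.1 to 14.8 on the log2 scale in 10 arrays and at 2.80 to 3.32 in the other 10. In the second set it went against the label in 8 of 10 arrays, being low in arrays labelled morpholino 1 to 4 and high in controls 6 to 9. It was high in morpholino 5 and low in control 10, as labelled. Arrays kept the groups of their labels in every test, and the direction and size of a difference by label that involves the second set are unsettled. Tracer state is used to describe values and, in alternative fits, to choose arrays to leave out. Markers of the neural plate (9 of 10 probe sets), mesoderm (10 of 10) and endoderm (12 of 12) were above the limit used for expression.

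A probe set was kept for testing where its log2 value exceeded 4 in at least 5 arrays, which 12 of the 15 did (6 receptor and 6 ligand probe sets). The remaining 3 were below log2 4 in every array. They were both probe sets of the receptor gene epha8.L (3.05 to 3.56 and 1.94 to 2.22) and that of the ligand gene efnb3.L (2.13 to 3.11). Values are deposited log2 intensities, a difference of 1 is a doubling, and levels of different probe sets cannot be set against each other.

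**Figure D1:**
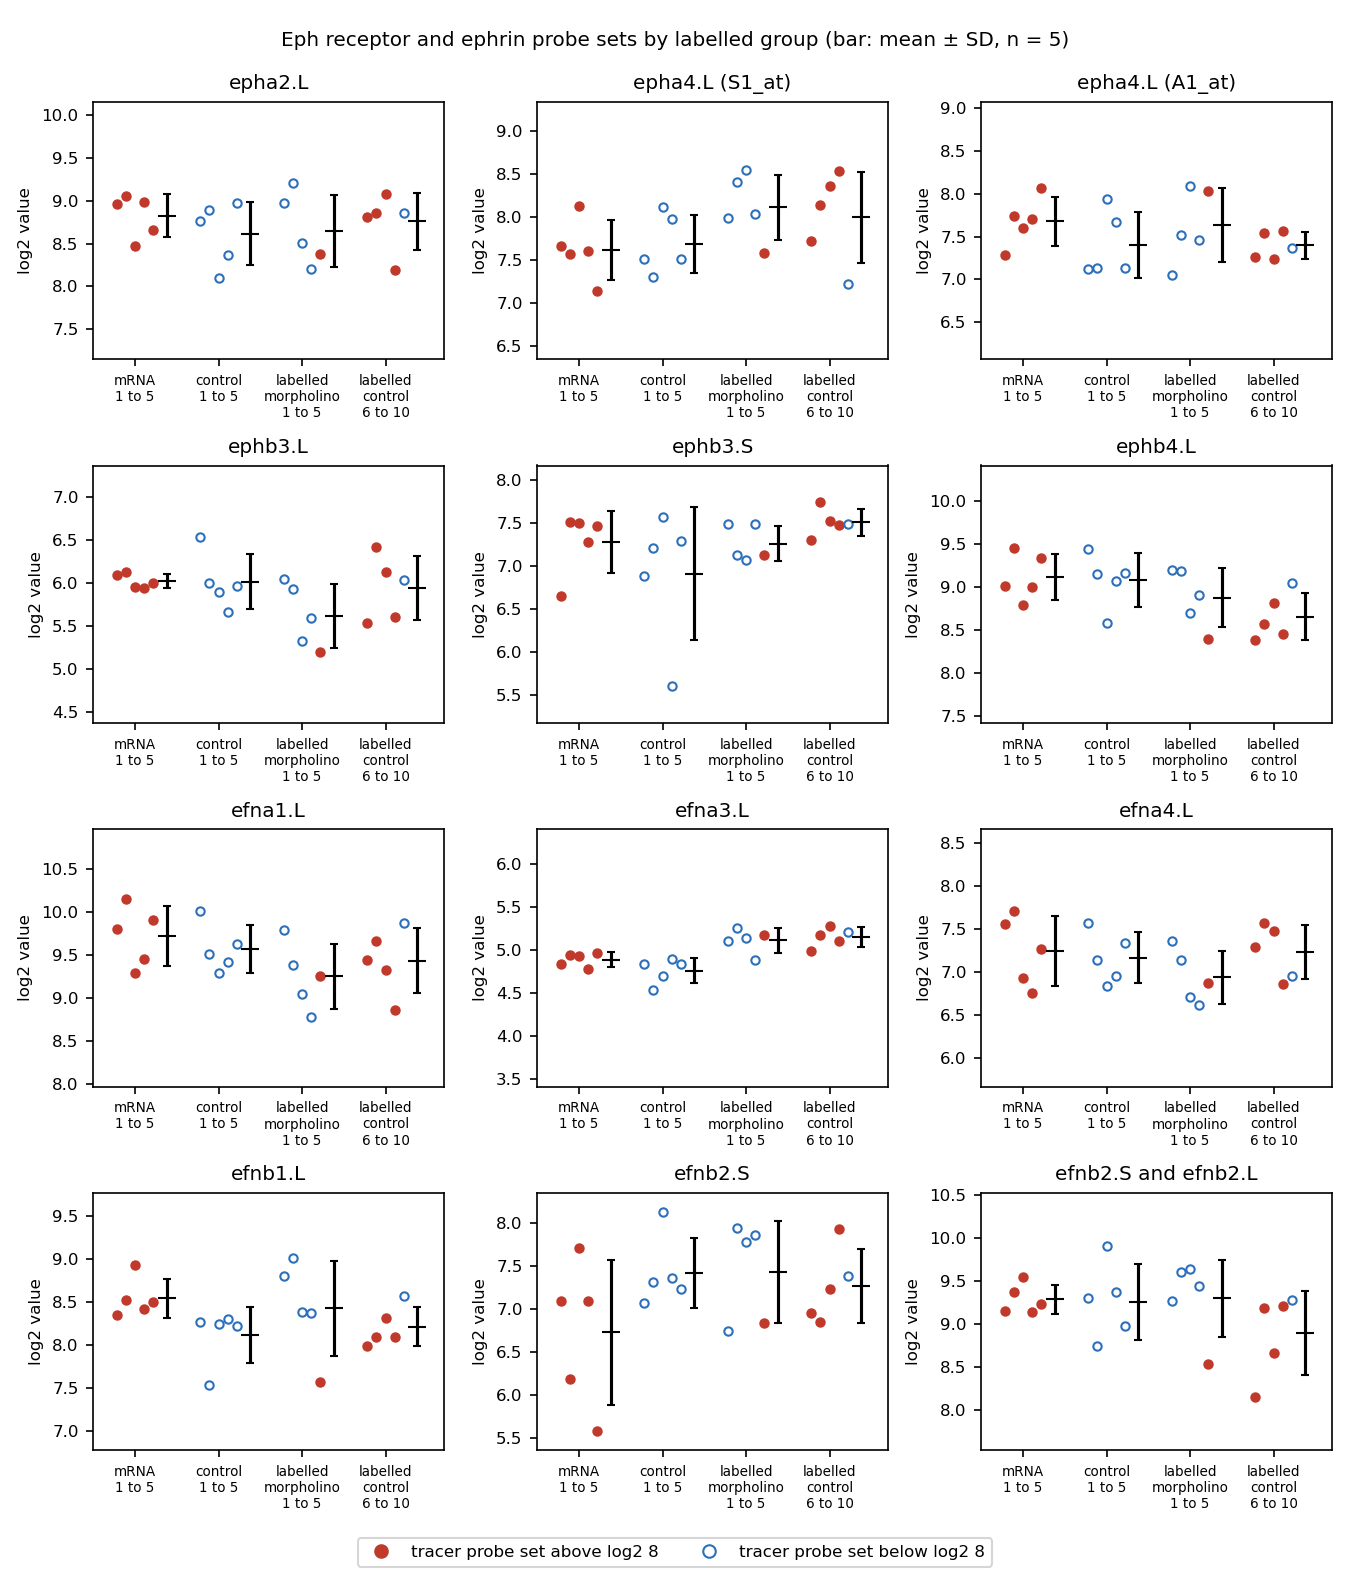
Log2 signal of the 12 kept Eph receptor and ephrin probe sets in each array, in panels by probe set, for the arrays labelled mRNA, controls 1 to 5, arrays labelled morpholino and controls 6 to 10. Points are arrays, filled where the tracer signal is high, and bars are means with SD over 5 arrays. Panels have different centres. The mRNA arrays of efnb1.L, at 8.34 to 8.93, all lie above controls 1 to 5, and the mRNA arrays of efnb2.S are the most scattered of the family, at 5.58 to 7.71.

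Xrx1 mRNA arrays against the controls of the same number ask which family members differ when Xrx1 is in excess. No member passed the test. The smallest p among the members were those of efnb2.S, lower in 4 of 5 pairs, and efnb1.L, higher in all pairs. Neither was near the threshold (limma, adjusted p = 0.312 and 0.314). The shared efnb2 probe set was next to last of the 12 members by p. In this paired fit limma called 7 of 10435 probe sets (0.0671%), all lower in mRNA arrays, and 0 of the 12 members. The rax.L probe set of the injected gene was among the 7, at -2.69 ± 0.29 (adjusted p = 0.0357), and which part of the injected mRNA it detects is not known here. At an unadjusted p under 0.05 there were 2 members, 1 higher and 1 lower, against 14.6% of all probe sets (8.11% higher, 6.54% lower). Among the members 10 were on the higher side and 2 on the lower, with a median log2 difference of 0.11, against a median of 0.03 over all probe sets, 56.2% of which were on the higher side.

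The transmembrane ligand gene efnb1.L was at 8.34, 8.53, 8.93, 8.42 and 8.50 in mRNA arrays 1 to 5, against 8.27, 7.53, 8.24, 8.30 and 8.22 in controls 1 to 5. Every mRNA array lay above every control of its set, but by only 0.04 between the lowest mRNA array and the highest control. The mean was 8.54 ± 0.23 in mRNA arrays and 8.11 ± 0.33 in controls 1 to 5 (SD, n = 5 each). The paired log2 difference was 0.43 ± 0.16 (SE, 1.35-fold; limma, p = 0.0272, adjusted p = 0.314). The pairs differed by 0.07, 1.00, 0.69, 0.12 and 0.28, so the size rested mainly on pairs 2 and 3. Without pair 2 the difference was 0.29. A same-direction difference in 5 of 5 pairs was found for 1 of the 12 members, efnb1.L, against 13.5% of all probe sets. For an increase the share of all probe sets was 7.89%, close to that of the members. Groups that did not overlap, higher in mRNA arrays, were found for 1 of 12 members and 0.652% of all probe sets (1.06% in either direction). That separation ended when each array was centred on its median, an alternative chosen after seeing the data.

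The other transmembrane ligand gene was read by probe sets that differed from each other. The efnb2.S probe set was at 7.09, 6.18, 7.71, 7.09 and 5.58 in mRNA arrays 1 to 5, against 7.07, 7.32, 8.13, 7.36 and 7.23 in controls 1 to 5. The groups overlapped, and mRNA arrays 2 and 5 were the low ones. Means were 6.73 ± 0.84 in mRNA arrays and 7.42 ± 0.41 in controls 1 to 5 (SD, n = 5 each). The paired difference was -0.69 ± 0.24 (limma, p = 0.0223, adjusted p = 0.312), and -0.45 without pair 5.

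The shared efnb2 probe set was at 9.15, 9.37, 9.54, 9.14 and 9.23 in mRNA arrays 1 to 5, against 9.30, 8.74, 9.90, 9.37 and 8.97 in controls 1 to 5. The groups overlapped, with controls both highest and lowest. The paired difference was 0.03 ± 0.16 (adjusted p = 0.951). Which efnb2 homeolog gives most of its signal is not known here.

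**Figure D2:**
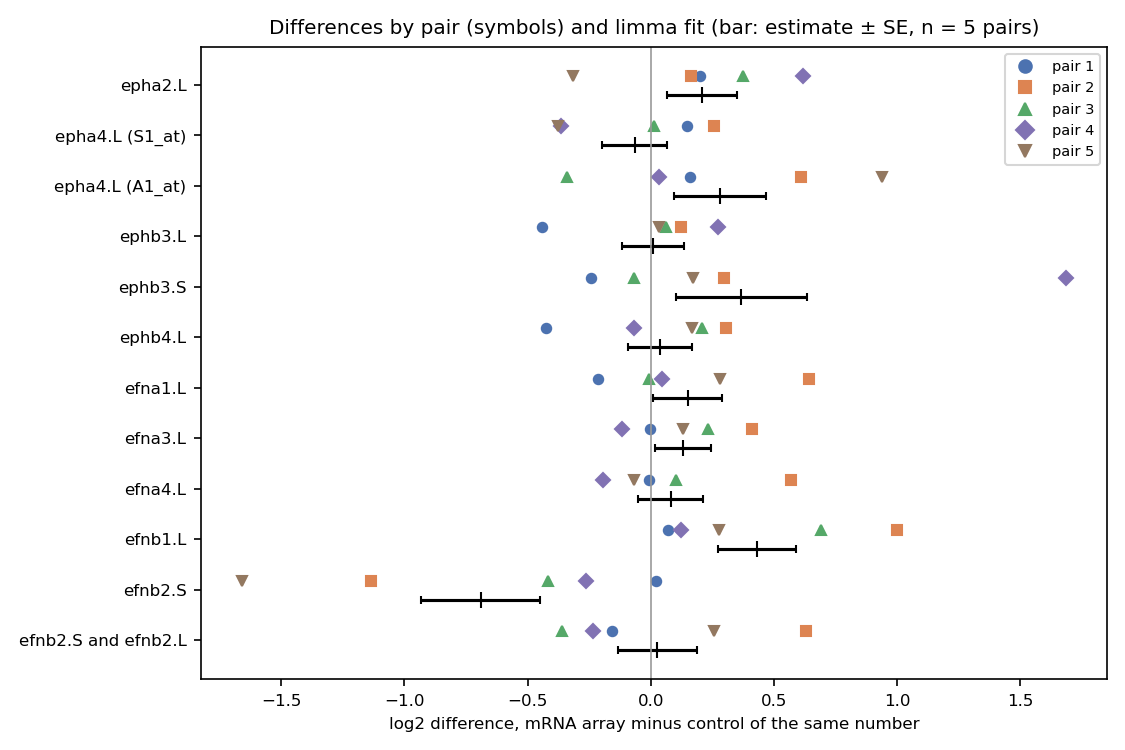
Log2 difference of each mRNA array from the control of the same number, for the 12 kept probe sets, with symbols for the 5 pairs and a bar for the limma estimate with its SE. All 5 points of efnb1.L lie above 0, between 0.07 and 1.00, while those of efnb2.S reach from 0.02 down to -1.66.

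A measure of RNA quality moved with these arrays. The 3 prime minus 5 prime log2 difference over 4 control transcripts averaged 2.68 ± 0.81 in mRNA arrays and 1.64 ± 1.27 in controls 1 to 5 (SD, n = 5 each). These transcripts include alpha-actins beside beta-actin and Gapd, and whether the measure also follows muscle content was not tested. Over the 10 arrays of the first set the measure correlated at 0.50 with efnb1.L and at -0.58 with efnb2.S. Its part in the result was not tested. In whole-embryo RNA, fewer cells that express a gene and less RNA per cell cannot be told apart.

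The lipid-anchored ephrin-A ligands were close between the groups. For efna1.L, values were 9.80, 10.15, 9.29, 9.46 and 9.90 in mRNA arrays, against 10.02, 9.51, 9.29, 9.41 and 9.62 in controls 1 to 5, a paired difference of 0.15 ± 0.14 (adjusted p = 0.626). The values of efna4.L were 7.56, 7.71, 6.94, 6.76 and 7.27 in mRNA arrays, against 7.57, 7.14, 6.83, 6.95 and 7.34 in controls 1 to 5 (difference 0.08 ± 0.13, adjusted p = 0.793). Both sets of values overlapped almost fully. The efna3.L probe set was at 4.78 to 4.97 in mRNA arrays and 4.53 to 4.89 in controls 1 to 5 (difference 0.13 ± 0.11, adjusted p = 0.592).

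Among the EphA receptors, the probe sets of epha4.L again differed. EphA4 is the receptor that binds both ligand classes. The epha4.L probe set with an identifier ending in A1_at was at 7.28, 7.74, 7.60, 7.70 and 8.07 in mRNA arrays 1 to 5, against 7.12, 7.13, 7.94, 7.67 and 7.13 in controls 1 to 5. The groups overlapped, and the mRNA array of pair 5 was the highest. The paired difference was 0.28 ± 0.19 (adjusted p = 0.490), and 0.12 without pair 5. The other, ending in S1_at, was at 7.14 to 8.13 in mRNA arrays and 7.31 to 8.11 in controls 1 to 5, a difference of -0.06 ± 0.13 (adjusted p = 0.836). The receptor gene epha2.L was at 8.47 to 9.05 in mRNA arrays and 8.10 to 8.97 in controls 1 to 5 (difference 0.21 ± 0.14, adjusted p = 0.509).

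The EphB receptors, partners of the ephrin-Bs, showed no difference past the test. The ephb4.L probe set was at 8.79 to 9.46 in mRNA arrays and 8.59 to 9.44 in controls 1 to 5 (difference 0.04 ± 0.13, adjusted p = 0.915). The ephb3.L probe set was at 6.10, 6.12, 5.95, 5.94 and 6.002 in mRNA arrays, against 6.54, 5.999, 5.89, 5.67 and 5.97 in controls 1 to 5 (difference 0.01 ± 0.13, adjusted p = 0.977). Its mRNA arrays lay closer together (SD 0.08) than the controls (SD 0.32). For the homeolog ephb3.S the difference was 0.37 ± 0.26 (adjusted p = 0.525), with control 4 at 5.59 and the other controls 1 to 5 at 6.89 to 7.57. In pair 4 alone the ephb3.S difference was 1.68.

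Against all 10 controls, a comparison that shares controls 1 to 5 with the paired one, limma called 0 of 10435 probe sets (0%) and 0 members. The fit has no term for array set, and controls 6 to 10 are of the second set, with controls 6 to 9 tracer-high. Array set, tracer and label thus cannot be told apart in these differences. At an unadjusted p under 0.05 there were 2124 probe sets (20.4%) and 0 members. The largest member difference was that of efnb2.S, -0.62 ± 0.30 (adjusted p = 0.249), and it was -0.33 without mRNA array 5. For efnb1.L it was 0.38 ± 0.19 (adjusted p = 0.261), and for the A1_at probe set of epha4.L 0.28 ± 0.18 (adjusted p = 0.373). Members were higher in 9 cases and lower in 3, with a median of 0.10, against 0.00 over all probe sets (49.6% higher).

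Arrays labelled morpholino against all 10 controls ask about loss of Xrx1 only if the labels hold. By tracer, both groups mixed high and low arrays, so the direction, the size and the lack of calls are unsettled. limma called 0 of 10435 probe sets (0%) and 0 members, and 928 probe sets (8.89%, or 5.5% higher and 3.39% lower) and 1 member, on the lower side, were at an unadjusted p under 0.05. That member was the receptor gene ephb3.L, at 6.05, 5.93, 5.32, 5.59 and 5.20 in arrays labelled morpholino 1 to 5, against 5.53, 6.42, 6.12, 5.60 and 6.04 in controls 6 to 10. Morpholino 5, the tracer-high array of its label, was the lowest. The mean was 5.62 ± 0.37 (SD, n = 5) in arrays labelled morpholino and 5.98 ± 0.33 (SD, n = 10) in all controls. The difference was -0.36 ± 0.17 (limma, p = 0.0442, adjusted p = 0.551). For efna4.L, values were 7.36, 7.14, 6.70, 6.62 and 6.88 in arrays labelled morpholino, against 7.29, 7.58, 7.48, 6.86 and 6.96 in controls 6 to 10, and the difference from all controls was -0.26 ± 0.18 (adjusted p = 0.667). The A1_at probe set of epha4.L was at 7.05, 7.52, 8.09, 7.46 and 8.04 in arrays labelled morpholino, against 7.26, 7.55, 7.24, 7.57 and 7.37 in controls 6 to 10 (difference from all controls 0.24 ± 0.18, adjusted p = 0.701). For efna1.L the values were 9.79, 9.38, 9.04, 8.78 and 9.25 in arrays labelled morpholino, against 9.44, 9.67, 9.32, 8.86 and 9.87 in controls 6 to 10 (difference from all controls -0.25 ± 0.19, adjusted p = 0.695). All of these groups overlapped. Members were higher in 8 cases and lower in 4, with a median of 0.07, against 0.04 over all probe sets (56.3% higher).

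The direction of 5 of the 12 members in this comparison turned when the arrays with a tracer signal opposite to the label were left out. Without those 8 arrays morpholino 5 alone stood for its group and was assumed to vary like the others. The controls left were controls 1 to 5, of the other set, and control 10. Tracer state, array set and the single array cannot be told apart in that fit. The difference of efnb1.L was 0.27 ± 0.19 with all arrays (adjusted p = 0.680) and -0.62 without the 8 (adjusted p = 0.268). The shared efnb2 probe set turned likewise, at 0.22 with all arrays (adjusted p = 0.777) and -0.73 without the 8 (adjusted p = 0.218). For efnb2.S the values were 0.09 with all arrays and -0.58 without the 8 (adjusted p = 0.601), for the receptor gene ephb4.L 0.01 with and -0.68 without them (adjusted p = 0.206), and for the S1_at probe set of epha4.L 0.27 with and -0.03 without them (adjusted p = 0.976). The receptor gene ephb3.L kept its side, at -0.82 without the 8 (adjusted p = 0.0884). The efna3.L probe set passed the test only when controls 1 to 5 were the comparison group (0.35 ± 0.11, limma, adjusted p = 0.0465), across the 2 array sets. There 1628 of the 10435 probe sets passed, a larger share than the 1 of 12 members. The efna3.L values were 4.88 to 5.26 in arrays labelled morpholino and 4.99 to 5.29 in controls 6 to 10, against 4.53 to 4.89 in controls 1 to 5. Against controls 6 to 10 alone no member was near the threshold (adjusted p of 0.989 or more).

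Described by tracer, efnb1.L and the shared efnb2 probe set separated the second set, in the opposite direction to the first for efnb1.L. In the tracer-high arrays efnb1.L was at 7.57 in morpholino 5 and 7.99, 8.10, 8.32 and 8.09 in controls 6 to 9. In the tracer-low arrays it was at 8.80, 9.01, 8.39 and 8.38 in morpholino 1 to 4 and 8.57 in control 10. No value overlapped, and the medians were 8.09 in tracer-high arrays and 8.57 in tracer-low arrays. The gap was narrow, at 0.06 between the highest tracer-high and the lowest tracer-low array.

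The shared efnb2 probe set did likewise. It was at 8.53 in morpholino 5 and 8.14, 9.19, 8.65 and 9.20 in controls 6 to 9, all tracer-high. The tracer-low values were 9.27, 9.60, 9.64 and 9.44 in morpholino 1 to 4 and 9.28 in control 10. Medians were 8.65 in tracer-high arrays and 9.44 in tracer-low arrays. The efnb2.S probe set overlapped, with 6.84 in morpholino 5 and 6.95, 6.85, 7.23 and 7.94 in controls 6 to 9, against 6.74, 7.94, 7.78 and 7.86 in morpholino 1 to 4 and 7.39 in control 10. Its medians differed by -0.83, tracer-high minus tracer-low.

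Non-overlap in this set was found for 2 of 12 members, both lower in tracer-high arrays, and for 5.67% of all probe sets (2.81% higher, 2.87% lower). By label, no member and 0.364% of probe sets separated the second set. The 3 prime minus 5 prime difference was 0.821 ± 0.385 in tracer-high arrays and 1.47 ± 0.57 in tracer-low arrays (SD, n = 5 each), and it correlated over the set at 0.31 with efnb1.L and 0.64 with the shared efnb2 probe set. Its part in the result was not tested.

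**Figure D3:**
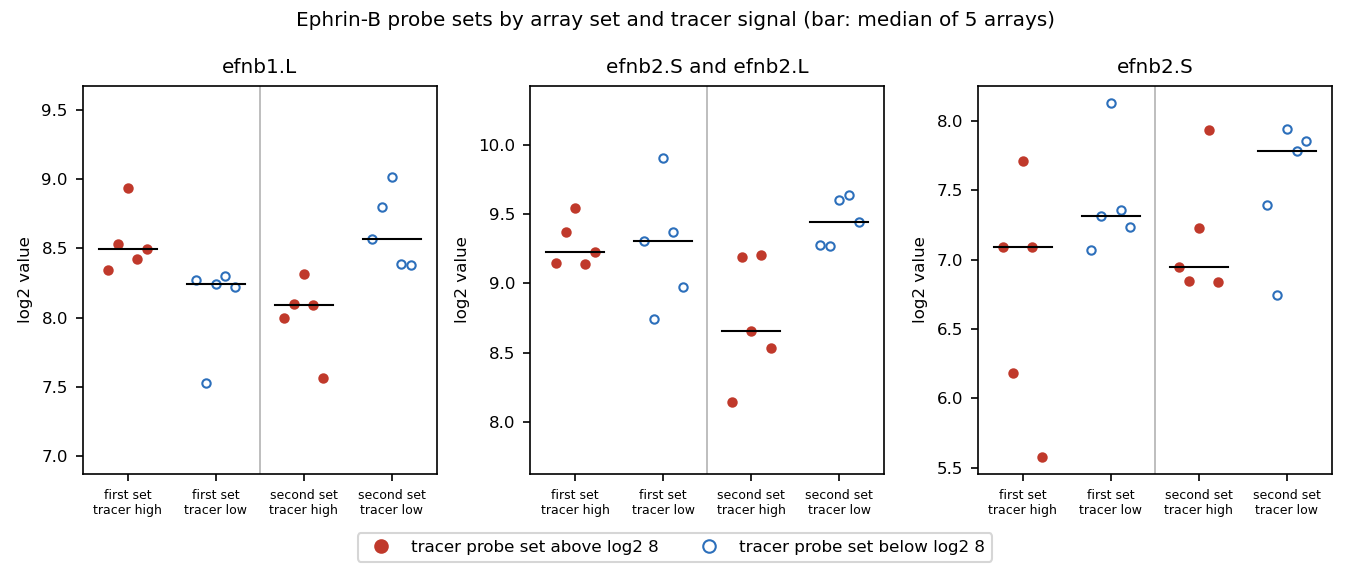
Log2 signal of the 3 kept ephrin-B probe sets in each array, grouped by array set and tracer signal, with a bar for the median of 5 arrays. Panels span the same number of log2 units around different centres. In the first set the tracer-high (mRNA) arrays of efnb1.L lie above the tracer-low ones, and in the second set the tracer-high arrays, at 7.57 to 8.32, lie below the tracer-low ones, at 8.38 to 9.01.

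Taking both sets, 4 of 10435 probe sets (0.0383%) had groups that did not overlap, higher in mRNA arrays and lower in tracer-high arrays of the second set. They were efnb1.L, the muscle transcription factor gene mef2d.L, the translation initiation factor gene eif4g1.S and a probe set without a symbol, the others being named after their values were seen. Gaps could be narrow. For efnb1.L that of the first set was 0.04, and it ended when each array was centred on its median. For mef2d.L the lowest mRNA array was at 9.138 and the highest of controls 1 to 5 at 9.135. For the reverse pattern there were 0, and 7 (0.0671%) did not overlap in the same direction in both sets. Among tracer-low arrays alone, efnb1.L was higher in the second set than in controls 1 to 5 without overlap (8.38 to 9.01 against 7.53 to 8.30), as were 8.51% of all probe sets. Levels thus differed between the sets without the tracer.

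The 5 named probe sets whose pattern over the 20 arrays was most like that of efnb1.L, of 6724 with an informative symbol, included several muscle genes. They were prkab1.S, a subunit of the energy-sensing kinase AMPK (Pearson r 0.83), des.1.S, the muscle intermediate filament desmin (0.83), smyd1.L, a muscle methyltransferase (0.82), cacng1.L, a muscle calcium channel subunit (0.82), and sypl2.S, a membrane protein of muscle triads in mammals (0.81). Within the first set their correlations with efnb1.L ran from 0.68 to 0.89, and within the second from 0.81 to 0.97, the highest being smyd1.L. These are descriptions over arrays that share embryos' set, scale and RNA quality.

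Values show where the likeness lay. Over the second set cacng1.L was at 4.10 to 6.06 in tracer-high arrays and 6.62 to 7.69 in tracer-low arrays, and smyd1.L at 5.63 to 7.20 in tracer-high and 7.72 to 8.73 in tracer-low arrays. Neither overlapped there. In the first set both overlapped, with cacng1.L at 6.61 to 7.57 in mRNA arrays and 5.66 to 7.36 in controls 1 to 5, and smyd1.L at 7.46 to 8.35 in mRNA arrays and 6.76 to 8.57 in controls 1 to 5. The mesoderm marker list (10 of 10 probe sets kept) averaged 8.13 to 8.73 in mRNA arrays and 7.87 to 8.35 in controls 1 to 5. In the paired fit 7 of these 10 were higher and 0 lower at an unadjusted p under 0.05, against 8.11% and 6.54% of all probe sets. Homeologs such as myod1.L and myod1.S count apart. None passed the adjusted threshold, and their median difference of 0.60 was larger than the 0.43 of efnb1.L. The second set's mesoderm averages overlapped, at 8.26 to 8.55 in tracer-high and 8.18 to 8.51 in tracer-low arrays. Its part in the efnb1.L result was not tested. The lowest array of each set for efnb1.L, control 2 in the first and morpholino 5 in the second, was also the lowest of its set for smyd1.L and cacng1.L.

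Other tissue lists separated the second set by tracer. Neural crest and border markers (10 of 10 kept) averaged 7.503 to 7.66 in tracer-high and 7.81 to 8.13 in tracer-low arrays, the same direction as efnb1.L. Cement gland markers (7 of 7 kept) also lay lower, at 8.18 to 8.94 in tracer-high and 9.62 to 10.02 in tracer-low arrays. Endoderm markers (12 of 12 kept) lay higher, at 7.63 to 7.93 in tracer-high and 7.05 to 7.48 in tracer-low arrays. Each of these 3 lists overlapped between mRNA arrays and controls 1 to 5. In the paired fit, however, 6 of 7 cement gland probe sets were lower at an unadjusted p under 0.05 and 0 higher (median -0.82). For neural crest and border 3 of 10 were lower and 0 higher (median -0.12), the opposite direction to efnb1.L. For endoderm 1 of 12 was lower and 0 higher (median 0.00). Over all probe sets 6.54% were lower at that p. None in these lists passed the adjusted threshold. The part of these lists in the ephrin values was not tested.

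**Figure D4:**
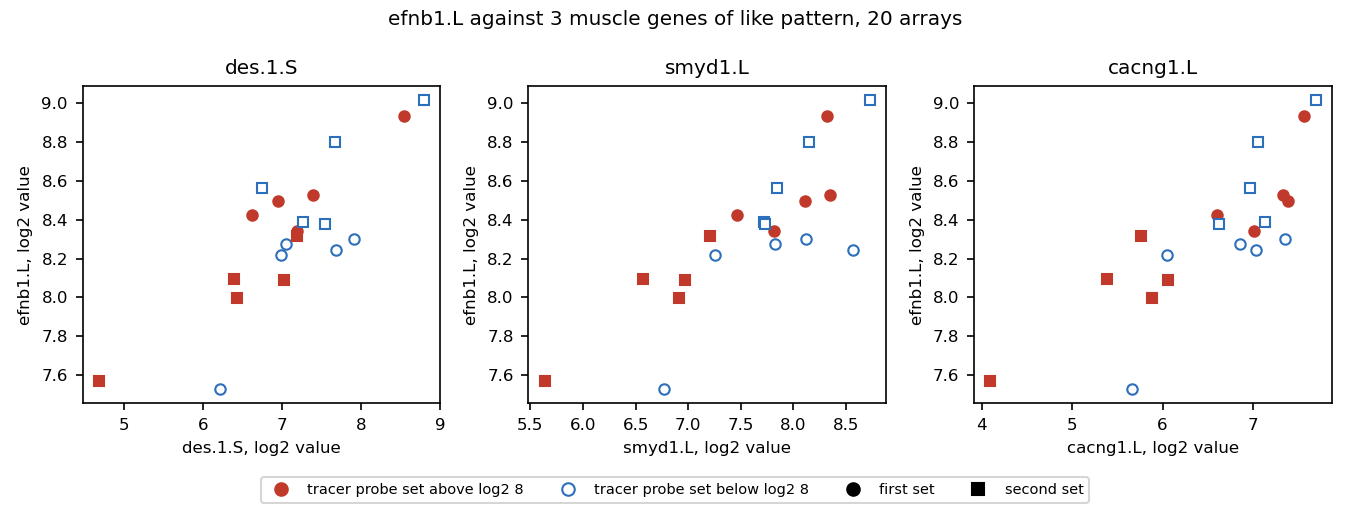
Log2 signal of efnb1.L (vertical axes) against that of the muscle genes des.1.S, smyd1.L and cacng1.L (horizontal axes), 1 point per array. Circles are the first set, squares the second, and filled points tracer-high arrays; the squares separate by tracer on both axes for smyd1.L and cacng1.L, and overlap horizontally for des.1.S.

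Genes that act with the family were counted from chosen lists, and none was called in any of the comparisons. In the paired fit the Eph signal partner list had 26 of 31 probe sets kept, of which 4 were higher and 1 lower at an unadjusted p under 0.05, with a median of 0.12. Over all probe sets 8.11% were higher and 6.54% lower at that p, and the median was 0.03. The guanine nucleotide exchange factor gene vav2.S, which links Eph receptors to Rac in mammals, averaged 5.41 ± 0.22 in mRNA arrays and 4.85 ± 0.14 in controls 1 to 5 (SD, n = 5 each; difference 0.55 ± 0.11, adjusted p = 0.182) without overlap, against 0.652% of all probe sets higher without overlap. Another exchange factor gene, kalrn.L, differed by 0.65 ± 0.14 (adjusted p = 0.247) and the small GTPase gene rac1.L by -0.79 ± 0.29 (adjusted p = 0.314). By tracer in the second set the adaptor gene grb2.L was lower in tracer-high arrays without overlap (2.87% of all probe sets were), and vav2.S was not among those that separated.

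The planar cell polarity list had 25 of 29 probe sets kept, 7 higher and 2 lower at that p, against the same 8.11% and 6.54% of all probe sets, with a median of 0.13. It shares genes with the Eph signal partner list, and rac1.L counts as lower in both. The 2 counts are thus not independent. The core polarity component prickle1.L averaged 8.56 in mRNA arrays and 8.02 in controls 1 to 5 (difference 0.54 ± 0.09, adjusted p = 0.166) without overlap. Its homeolog prickle1.S did not overlap either (difference 0.49 ± 0.13, adjusted p = 0.281), against 0.652% of all probe sets higher without overlap. The receptor-like gene ptk7.S differed by 0.69 ± 0.16 (adjusted p = 0.266). In the second set by tracer, the ligand genes wnt11b.L and wnt5b.S were higher in tracer-high arrays without overlap, as were 2.81% of all probe sets, and prickle1 was not among those that separated.

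The FGF pathway list had 13 of 19 probe sets kept, 6 higher and 0 lower at that p, against 8.11% and 6.54% of all probe sets, with a median of 0.23 against 0.03. The ligand gene fgf8.L averaged 8.62 in mRNA arrays and 7.95 in controls 1 to 5 (difference 0.66 ± 0.12, adjusted p = 0.169) without overlap, and the target gene etv4.L did not overlap either, against 0.652% of all probe sets higher without overlap. The ligand gene fgf20.L differed by 0.80 ± 0.21 (adjusted p = 0.281) and the early response gene egr1.L by 0.74 ± 0.21 (adjusted p = 0.294). In the second set by tracer no FGF list probe set separated the arrays.

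Eye field markers, the tissue the injected gene acts in, averaged 5.91 to 6.72 in mRNA arrays and 6.81 to 7.44 in controls 1 to 5 over the 9 of 12 probe sets kept. Their averages in the second set were 5.69 to 6.08 in tracer-high and 6.25 to 6.77 in tracer-low arrays. The list average thus lay lower with the tracer in both sets, whereas efnb1.L did not. In the paired fit 5 of the 9 were lower and 1 higher at an unadjusted p under 0.05 (median -0.33). Over all probe sets 6.54% were lower and 8.11% higher at that p. The 1 probe set of the list past the adjusted threshold was rax.L. The list includes rax.L and rax.S, the homeologs of the injected gene. The rax.L probe set was at 3.09 to 5.23 in mRNA arrays and 6.68 to 8.38 in controls 1 to 5. In the second set it was at 3.73 to 5.38 in tracer-high and 6.45 to 7.21 in tracer-low arrays. Averages without rax are not given here. The part of the eye field list in the ephrin values was not tested.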

How the data were processed

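The deposited values are log2 intensities, 1 per probe set and array (0.749 to 15.4, none missing), from GCRMA per the submitters' processing notes. The software version, and which arrays were normalized together, is not stated there. Array medians were 5.64 to 5.88. An array has no read depth, so precision depends on how many there are. Without the 120 control probe sets, those above log2 4 in at least 5 of 20 arrays were kept (10435). Gene symbols came from the platform annotation: 9304 gene probe sets had 1 symbol, 195 several and 5992 none, and 2 symbols were updated.

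limma 3.58.1 in R 4.3.3 (lmFit, eBayes) tested each kept probe set, with Benjamini-Hochberg adjustment over all of them and a threshold of 0.05. Xrx1 mRNA arrays were tested against controls 1 to 5 with replicate number as a block, and both labelled injections against all 10 controls with 3 group means. After removal of group means, same-numbered mRNA and control arrays correlated at 0.226 to 0.634, over 0.1 in 5 of 5 pairs, so the numbers were taken to pair them. For arrays labelled morpholino, with same-numbered controls in the other set, 3 of 5 were over 0.1, and no block was used. The same-numbered control was the closest of controls 1 to 5 for 4 of 5 arrays in both groups.

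Members, lists and tests were chosen with earlier results of these data known. Values in every array are given for members called in any comparison, the 3 with the smallest p in each, efnb1, and up to 4 whose second set did not overlap by tracer; efna1.L was added after its values were seen. Lists name up to 3 genes by p. The fit was tested on simulated data. Filters, quantile normalization, the block, other control groups and left-out arrays were tried as alternatives.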

Additional observations from a re-analysis of the deposited data

Results flagged for a closer look

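The receptor gene ephb3.S had a low array in each group of the first set. In mRNA array 1 it was at 6.64, with the next mRNA array at 7.28, a gap of 0.736 of the range over these 5 arrays. In control 4 it was at 5.59, with the next lowest at 6.89, a gap of 0.601 of the range over all 10 controls. Of 36 groups of arrays examined in this way 2 held such an array, and chance gives about 1 in 20.

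For efnb1.L the difference of medians was 0.251 in the first set (mRNA minus controls 1 to 5) and -0.474 in the second (tracer-high minus tracer-low), with no overlap in either. With each array centred on its median, the groups of the first set overlapped. The difference between the sets was not tested.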

How the results depend on the processing

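No alternative of the paired comparison brought a member past the threshold. Its 7 called probe sets became 0 with no filter, 0 with no replicate block and 0 to 5 without 1 pair. Against all 10 controls the mRNA count of 0 became 6 with a filter at log2 6, and 0 to 577 without 1 array (577 without control 1, 314 without control 4, 93 without mRNA array 3), again with 0 members. For arrays labelled morpholino the count of 0 became 2142 with a replicate block, whose numbers did not pair these arrays, 1628 against controls 1 to 5, where 1 member (efna3.L) passed, 495 without the 8 arrays with a tracer signal opposite to the label, and 0 to 1 without 1 array. The counts of 2142 and 1628 do not come from separate comparisons. Controls 6 to 10 share no replicate number with another array, so under the block only controls 1 to 5 inform the difference. Member differences were the same in both, such as 0.32 for efnb1.L and 0.35 for efna3.L. Both counts thus compare across array sets. Without the 8 arrays with a tracer signal opposite to the label, 5 of 12 members turned in the comparison of arrays labelled morpholino with controls. They were efnb1.L, to -0.62, the shared efnb2 probe set, to -0.73, efnb2.S, to -0.58, ephb4.L, to -0.68, and the S1_at probe set of epha4.L, to -0.03. Members that separated the first set numbered 1 as deposited and after quantile normalization, and 0 with arrays centred on their medians. In the second set by tracer they numbered 2 in all of these. Of all probe sets, as deposited, 1.06% separated the first set and 5.67% the second by tracer. Shares of all probe sets under the other settings were not computed. For the members with the smallest p in each comparison, followed through every alternative, 155 values kept direction and side of the threshold and 1 (efnb1.L, above) turned. Some other members turned under other settings without passing the threshold. Groups of 5 arrays and narrow gaps limit what can be separated.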

Other observations

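Some pairs of family members also varied together over arrays, irrespective of label. The ephrin-A genes efna1.L and efna4.L correlated at 0.91 over the 10 arrays of the first set and 0.66 over those of the second. The receptor gene ephb3.L and efna4.L correlated at 0.68 and 0.75 in the same order of sets. In contrast, efna1.L and efnb2.S ran against each other, at -0.77 in the first set and -0.65 in the second, and the S1_at probe set of epha4.L and efnb2.S ran together, at 0.76 and 0.51. Further pairs also held in both sets, among them efna1.L and ephb3.L (0.69 and 0.63) and efnb1.L and the shared efnb2 probe set (0.56 and 0.67). Some pairs did not hold across sets or agree closely. The probe sets of epha4.L correlated at 0.20 and 0.17, and ephb4.L and efnb2.S at -0.78 and 0.21, in the same order. All pairs are given as descriptions, chosen after their values were seen. Arrays share set, scale and RNA quality.

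Over all 20 arrays efnb2.S was the most variable member, with an SD of 0.62 log2 units, larger than in 83.1% of kept probe sets. The SD of efna3.L was 0.20, against a median of 0.39 over all kept probe sets.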
